A study of Mus musculus with 6 samples.

Results

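Loss of both *Sox4* and *Sox11* was measured in mouse primary keratinocytes on 2 of the 6 2-colour arrays of the series, namely those titled Sox4/11 dcKO versus wild-type control. The series as a whole asked which genes the SOX factors control in epidermal cells, and the other arrays measured Sox4 cKO and Sox11 cKO cells, 2 arrays each. The cells came from the back skin of newborn pups, and the labels give every sample the strain 129SvEx:C57BL/6. By the study's methods this was the mixed background of the floxed parents, which also lacked *Sox12*, and the Cre-carrying mice crossed to them were FVB/N. They were grown on J2 feeder cells for 3 passages and then off the feeders for at least 2 passages. The dcKO cells carried loxP-flanked *Sox4* and *Sox11* and a Cre recombinase driven by the *Krt14* promoter, which acts in the epidermal cells that use keratin 14, and they were set against wild-type control keratinocytes on each array. In replicate 1 the dcKO RNA was labelled with Cy5 and in replicate 2 with Cy3. The labels call these arrays biological replicates but do not say how many pups contributed or whether the wild-type RNA was prepared separately for each array, so the p-values cover the spread between these arrays. With 2 arrays per genotype, that number limits the precision of every value.

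SOX4 and SOX11 belong to the SoxC group of transcription factors, which bind DNA through a high mobility group (HMG) box and are known from progenitor cells of embryonic tissues, where they often act on the same genes. In the epidermis both are active in the embryo, and SOX11, which is lost around birth, returns at wound edges. Keratinocytes are the cells that build the epidermis: basal cells attach to the basement membrane, divide and migrate, and their progeny leave that layer, cornify and form the barrier.

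Each array gives a dcKO and a wild-type intensity per probe. Log2 ratios of dcKO over wild type were turned the same way on both arrays, and levels below are normalised log2 channel intensities, which compare channels for 1 probe but not different genes. *Sox4* had levels of 7.26 and 6.87 in dcKO cells against 9.49 and 9.68 in wild type, and *Sox11* had 7.31 and 5.95 against 10.37 and 9.74, so both targeted transcripts were lower on both arrays. *Sox12*, the remaining SoxC gene, went undetected in both genotypes. All 10 keratinocyte markers examined were above background in every dcKO and wild-type channel of these arrays, among them *Krt14* at 16.75 and 16.82 in dcKO and 16.12 and 16.85 in wild type. Of 12 fibroblast markers 10 were above background in none of these channels, and of 13 immune, 9 melanocyte and 8 endothelial markers 7, 5 and 6 were likewise not detected. Both genotypes carried *Xist* RNA on both arrays (9.46 and 8.65 in dcKO, 8.19 and 8.75 in wild type), and the Y-linked *Ddx3y* and *Eif2s3y* were not above background in any of these channels. The share of probes above background was 35.1% and 42.2% in the dcKO channels and 41.1% and 45% in the wild-type channels. Across 22580 probes detected on both arrays, which are not independent, the log2 ratios of the replicates had a Pearson correlation of 0.612.

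Of 21368 genes measured by a named probe, 298 were called, that is, had a limma adjusted p below 0.05 and a log2 fold change beyond 1.5 in either direction (1.39% of genes tested). In dcKO cells 120 of them were higher (0.562%) and 178 lower (0.833%). All 298 moved the same way on both arrays. The falls included galectin-1, peroxidasin, fibronectin, keratin 18, a neuronal-type tubulin and regulators of the actin cytoskeleton. The rises included the inflammasome adaptor *Pycard*, acute-phase genes, the keratin gene *Krt7*, the surface protein gene *Ly6d* and the kallikrein inhibitor *Spink5*, while the cornified envelope precursors had 0 calls by limma (below). By adjusted p alone 313 genes were higher (1.46%) and 456 lower (2.13%). Counted as probes, 421 of 55681 were called (0.756%), 174 higher (0.312%) and 247 lower (0.444%). A gene was counted as above background where at least 1 channel of each dcKO array was, which held for 11884 genes, of which 1.0% were called higher and 1.49% lower. Of these genes 30.2% were higher and 39.0% lower on both arrays, and their median log2 fold change was -0.05. Simulated data made from these arrays had 52% of changes of 1.5 and 98% of changes of 2 called. A change of 1.5 sits on the threshold itself, so its share follows largely from the threshold. The simulated noise was independent and normal with the fitted spread of each probe. In the real data a gene with ratios far apart could miss a call at a larger change, as *Cxcl5* did at -3.85 (limma adjusted p = 0.163). The number of calls depended on the background correction and on each array: 51 genes were called with a normexp offset of 50, 0 with the signals processed by the scanner software (limma; 7473 probes at an unadjusted p below 0.05), 82 without dcKO replicate 1 and 91 without dcKO replicate 2, although each of the 298 genes kept its direction in every one of these fits. The genes had been called on these same arrays, with the same sign on both, so the kept direction is not independent support. Centring arrays on their median in place of loess moved the median of genes above background to -0.48 and the calls to 77 higher and 436 lower, so that directions below are relative to loess-normalised values.

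**Figure D1:**
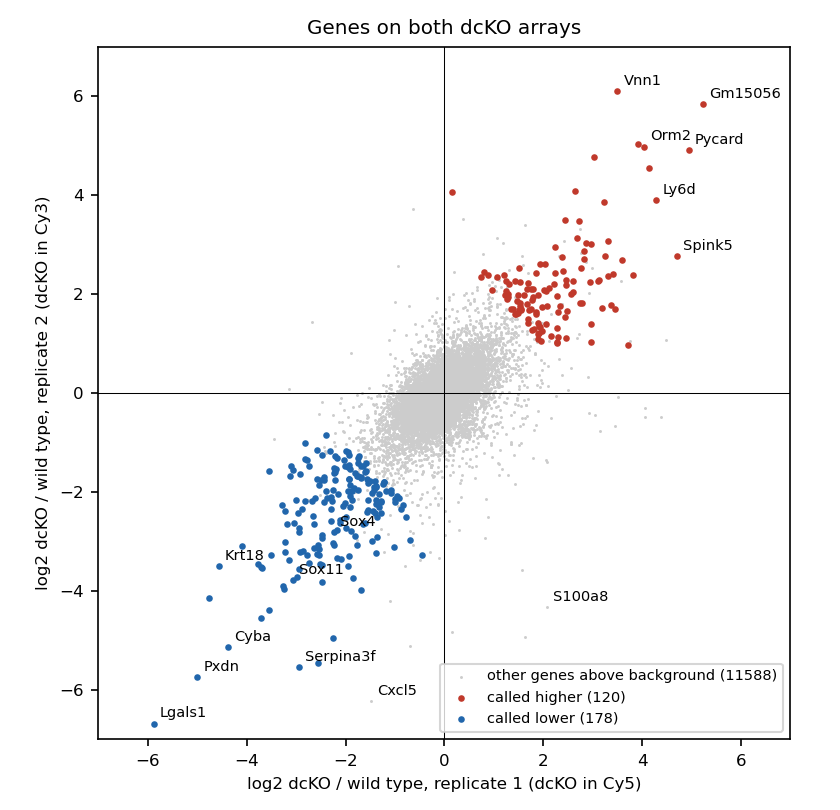
Log2 ratio of dcKO over wild type for each gene above background and each called gene, with replicate 1 on the x axis and replicate 2 on the y axis. Red and blue points are the 120 genes called higher and the 178 called lower, all in the quadrants where both arrays have the same sign, while *S100a8* lies at 2.08 and -4.34.

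*Lgals1*, which encodes the carbohydrate-binding protein galectin-1, had the largest fall. Its level was 9.41 and 8.16 in dcKO cells and 15.29 and 14.85 in their wild type, with no overlap (log2 fold change -6.28 ± 0.74, SE; limma adjusted p = 0.0101). *Pxdn* encodes peroxidasin, an enzyme that cross-links collagen IV in basement membranes. It read 6.11 and 5.34 against 11.11 and 11.08, and since neither dcKO channel was well above background the fall on this probe was one of at least 41.4-fold (adjusted p = 0.000381). Its second probe gave a log2 fold change of -2.53 beside -5.37, and with a normexp offset of 50 the brightest probe gave -4.5. A bound of this kind sets the brighter genotype against the lowest signal counted as detected, or against the dim probe itself where that is brighter. *Krt18*, a keratin of simple epithelia, read 8.73 and 8.99 against 13.3 and 12.49 (-4.03 ± 0.21; adjusted p = 0.0008). Its usual partner *Krt8* was not called and read 8.04 and 7.93 against 8.47 and 9.53. *Fn1*, fibronectin of the provisional matrix, read 5.54 and 7.7 against 9.08 and 12.09 (-3.97 ± 0.33; adjusted p = 0.00287). Both genotypes were dimmer for this gene on replicate 1 than on replicate 2, while the ratios of -3.54 and -4.4 were close. *Ldhb*, the heart-type subunit of lactate dehydrogenase, fell by 4.45 ± 0.63 on the log2 scale, with ratios of -4.76 and -4.14 (adjusted p = 0.0181). *Emb*, a partner protein of monocarboxylate transporters, had ratios of -3.69 and -3.55, and *Acot1*, an acyl-CoA thioesterase, -3.77 and -3.46. *Tuba1a*, an alpha-tubulin prominent in developing neurons, read 9.92 and 10.12 against 13.63 and 13.63 (-3.61 ± 0.21; adjusted p = 0.00102), and *Evl*, an Ena/VASP protein that lengthens actin filaments, had ratios of -3.25 and -3.96. These falls were all larger than the difference between the arrays.

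*Cyba*, a subunit of the phagocyte-type NADPH oxidase, had ratios of -4.38 and -5.14, and *Clec2f*, a lectin-like membrane protein gene, had ratios of -3.71 and -4.55, a fall of at least 17.5-fold. Other large falls were less even. The serpins *Serpina3f* and *Serpina3i* had ratios of -2.94 and -5.55, and of -2.56 and -5.47, so their size differed widely between the arrays. They belong to a cluster of near-identical genes whose probes may share targets, and the second *Serpina3i* probe gave a log2 fold change of 0.29 and the second *Serpina3f* probe one of -1.95. *Arhgdib* had ratios of -2.26 and -4.95, and its second probe gave -1.5. *Klhl22*, an adaptor of a ubiquitin ligase, had ratios of -4.09 and -3.1, and its second probe gave -0.93.

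*Pycard* had the steadiest of the largest rises. It encodes ASC, the adaptor that joins inflammasome sensors to caspase-1. Its level was 12.81 and 12.3 in dcKO cells and 7.87 and 7.39 in wild type (log2 fold change 4.92 ± 0.16, SE; limma adjusted p = 0.000157). The predicted gene *Gm15056* rose most, from 6.33 and 7.54 to 11.56 and 13.39 (5.54 ± 0.61; adjusted p = 0.00839). *Vnn1*, the pantetheinase vanin-1, had ratios of 3.5 and 6.11, far apart but both above the called threshold. *Orm1* and *Orm2* encode the acute-phase protein orosomucoid and are close copies of each other, so their probes may read the same RNA. *Orm1* read 10.08 and 10.97 against 6.15 and 5.94, and *Orm2* 10.49 and 11.29 against 6.44 and 6.3. *Ly6d*, a surface protein of stratified epithelia, rose from 12.22 and 12.72 to 16.5 and 16.62 (4.1 ± 0.36; adjusted p = 0.00349). *Krt7*, a keratin of glandular epithelia, rose from 9.53 and 8.67 to 12.77 and 12.54 (3.55 ± 0.42; adjusted p = 0.0103). *Spink5* encodes LEKTI, the inhibitor of kallikreins that controls shedding of the outer epidermis, and had ratios of 4.7 and 2.78. *Hspb8*, a small heat shock protein, had ratios of 4.14 and 4.55, and *Tmem45a*, a membrane protein of the upper epidermis, 3.03 and 4.78. Others among the largest rises were *Psapl1* (2.65 and 4.09), a saposin-like gene, *Col26a1* (3.3 and 3.09), a minor collagen, *Sqor* (3.6 and 2.69), the sulfide oxidising enzyme of mitochondria, *Tspan6* (3.81 and 2.38), a tetraspanin, and *Aqp5* (2.72 and 3.47), a water channel of secretory glands whose second probe gave 1.33. For *Col26a1* neither wild-type channel was well above background, which made the rise one of at least 8.72-fold.

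**Figure D2:**
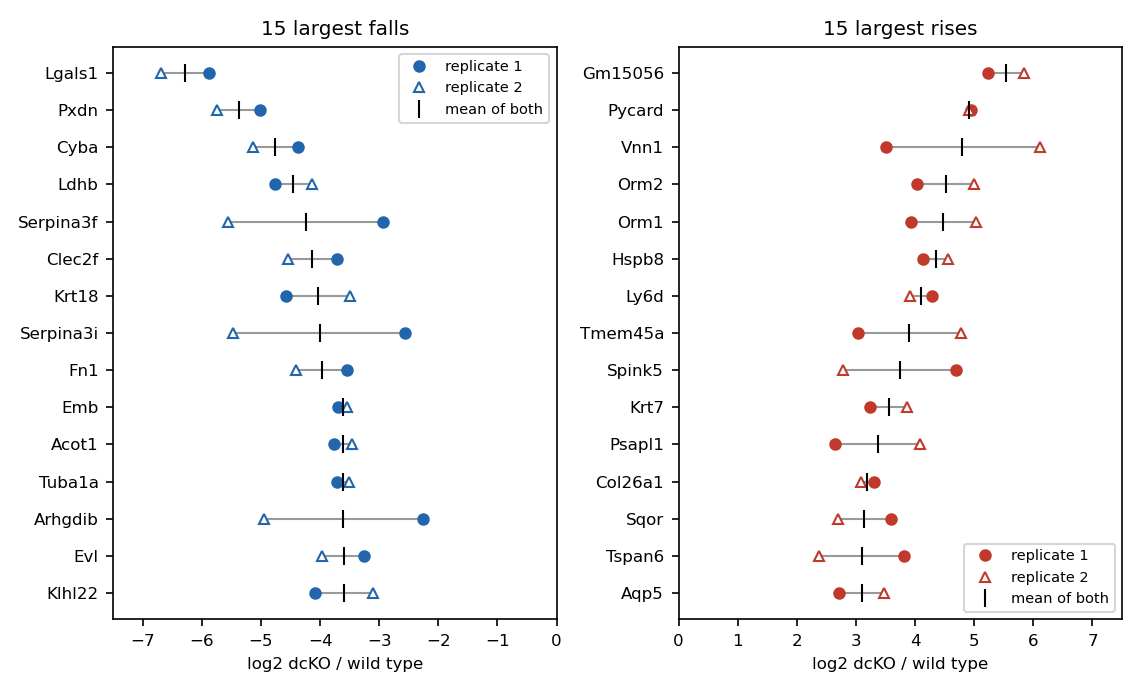
Log2 ratio of dcKO over wild type on each array for the 15 genes with the largest called falls (left) and rises (right), with the mean of both arrays as a bar. Replicates lie close together for *Pycard*, *Tuba1a* and *Col26a1* and far apart for *Vnn1*, *Arhgdib* and the *Serpina3* genes.

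The wild-type levels on the dcKO arrays were next set beside those of the wild type on the other 4 arrays, which lay on the same slide. These other wild-type channels ranged from 4.62 to 9.24 for *Xist* and from 4.63 to 10.32 for the Y-linked *Eif2s3y*, unlike the channels of the dcKO arrays, and the part of the cells' sex in these comparisons was not tested. Both dcKO levels lay below all 6 wild-type levels for 100 of the 178 genes called lower (56.2%), where 7.62% of genes above background did so. They lay above all 6 for 64 of the 120 called higher (53.3%), against 6.34% of genes above background. The calls were made against the wild type of the dcKO arrays, which is among the 6. These shares are therefore not independent of the calls. *Pycard* was between 6.6 and 7.28 on the other wild-type channels, *Pxdn* between 10.42 and 11.94, *Evl* between 12.68 and 13.13 and *Tuba1a* between 13.65 and 15.07, so for these genes the dcKO channels stood apart from every wild-type channel. *Lgals1* varied from 10.56 to 15.38 among the other wild-type channels, and its dcKO levels were still below them.

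For other called genes it was the wild type of the dcKO arrays that stood apart. Both of its levels were above those of all 4 other wild-type channels for 36 of the 178 genes called lower (20.2%, against 12.5% of genes above background), and below them for 39 of the 120 called higher (32.5%, against 9.21%). The called ratios hold this wild type, so these shares are not independent of the calls either. *Ror2* read 8.18 and 8.42 in that wild type and between 4.63 and 4.93 in the other 4, close to the 5.32 and 5.22 of dcKO cells. *Clec2f* read 9.62 and 9.96 there and 4.78 to 5.81 elsewhere. *Twist2* read 8.61 and 9.33 there and at most 6.64 elsewhere. *Hspb8* went the other way, with 5.48 and 6.21 in the wild type of the dcKO arrays and 9.65 to 11.31 in the other wild-type channels, and its dcKO levels of 9.62 and 10.76 lay just below and within that range. *Tmem45a* and *Spink5* were likewise lowest in that wild type. Among called genes named above or below, that wild type was also above the other 4 channels for *Areg*, *Arhgdib*, *Cxcl2*, *Cyba*, *Etv5*, *Gng2*, *Hif3a*, *Il24*, *Rcor2*, *Wfdc2* and *Wnt5a*. It was below them for *Ankrd37*, *Bnip3*, *Col4a5*, *Cst6*, *Duox1*, *Duoxa1*, *Gadd45g* and *Loxl4*. For each of these genes at least 1 dcKO level was not outside the 6 wild-type levels. For *Epha2* and *Ltbp3*, above, and *Ly6d*, *Orm1*, *Orm2* and *Dhrs3*, below, that wild type stood apart in the same way but both dcKO levels were still beyond all 6. *Serpina3f* ranged from 5.89 to 15.78 and *Cyba* from 4.86 to 11.13 among the other wild-type channels. *Aqp5* ranged there from 5.55 to 10.65, which held its dcKO levels of 8.38 and 8.92. In a fit on the separate channels, in which dcKO was compared with all 6 wild-type channels, 164 of the 298 called genes were still called.

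**Figure D3:**
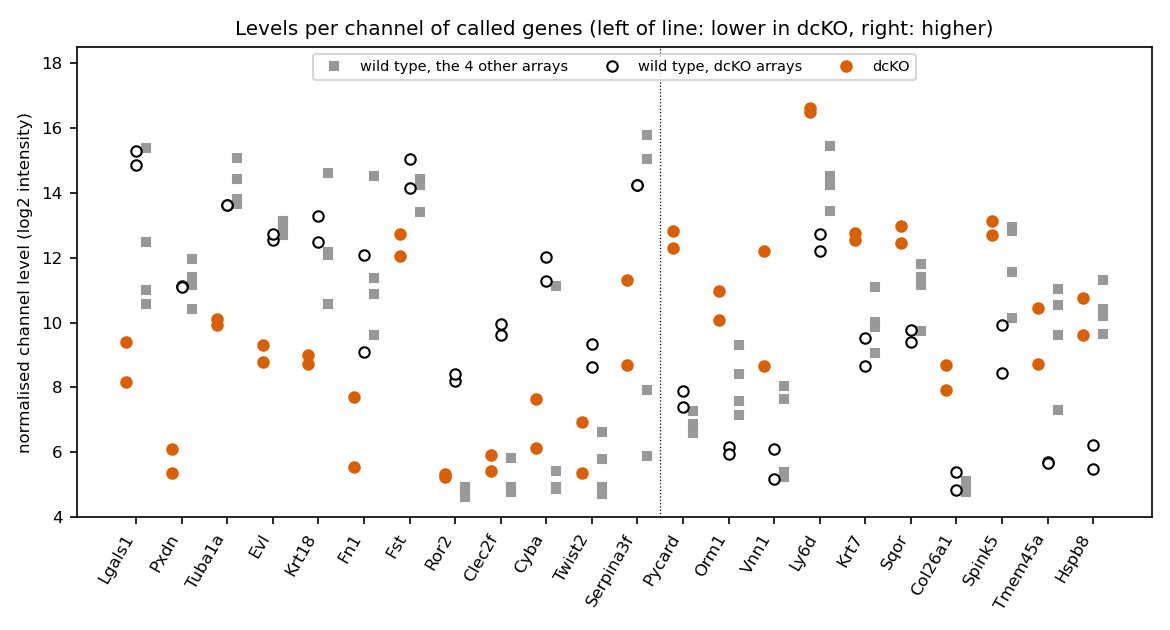
Normalised log2 level of 22 called genes in the 2 dcKO channels, the 2 wild-type channels of the same arrays and the 4 wild-type channels of the other arrays, with genes lower in dcKO to the left of the dotted line. For *Pxdn*, *Evl* and *Pycard* the dcKO levels lie outside all wild-type levels, whereas for *Ror2*, *Clec2f* and *Hspb8* the wild type of the dcKO arrays lies apart from the rest.

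A few of the genes that bundle actin and drive protrusions fell. Of 42 members of this list above background 0 were called higher and 4 lower, 23 were lower on both arrays, and the median log2 fold change was -0.34, beside 39.0% lower on both arrays, 1.49% called lower and a median of -0.05 for all genes above background. The called genes were *Evl* (above), *Fscn1*, *Marcksl1* and *Tmsb4x*. *Fscn1* encodes fascin, which packs actin into the bundles of filopodia, and read 8.09 and 6.8 in dcKO against 10.57 and 10.28 in wild type (-2.98 ± 0.27, SE; limma adjusted p = 0.00394). *Marcksl1*, a membrane-bound actin regulator, read 7.42 and 8.4 against 10.43 and 10.56, and *Tmsb4x*, thymosin beta-4, which binds actin monomers, 14.84 and 13.61 against 15.83 and 15.82. Its relative *Tmsb10* missed the fold threshold narrowly, with ratios of -1.62 and -1.37 (adjusted p = 0.0324). Among focal adhesion adaptors 2 of 28 fell and 0 rose (median -0.49), namely *Fblim1*, an adaptor of integrin adhesions (8.2 and 7.07 against 10.74 and 10.24), and *Tes*, a zyxin partner (10.22 and 9.96 against 12.15 and 11.7). *Rhoc*, a GTPase of migrating cells, was called lower with ratios of -2.48 and -3.81. *Farp1*, an exchange factor, was called lower with ratios of -1.02 and -3.11, and its second probe gave -0.78.

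The contractile apparatus had a single call. Only smooth muscle actin *Acta2* was called among 19 genes, at 7.47 and 8.62 against 9.57 and 11.98, although 15 of the 19 were lower on both arrays (39.0% of all genes above background were) and the median was -0.44. The other wild-type channels ran from 8.35 to 13.29 for *Acta2*, which held the dcKO level of 8.62. Its adjusted p in the fit on separate channels was 0.0721. Of 25 tubulins and microtubule regulators, *Tuba1a*, *Tubb2b* and *Stmn1* fell and 0 rose (median -0.44), beside 1.49% of all genes above background called lower. *Tubb2b*, another tubulin of developing neurons, had ratios of -3.3 and -2.27, and *Stmn1*, stathmin, which destabilises microtubules, read 10.91 and 11.71 against 12.91 and 13.18, with its second probe at -0.93. Among 13 integrins the laminin receptor subunit *Itga7* was the only one called, with ratios of -2.27 and -2.18, and *Itga3*, the main laminin-332 receptor of migrating keratinocytes, had ratios of -1.07 and -1.51 without a call (adjusted p = 0.0783). For *Itga7* the other wild-type channels ran from 5.89 to 9.57, beside 7.07 and 5.87 in dcKO cells. The fit on separate channels gave *Itga7* an adjusted p of 0.256.

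The sequences before the start sites of these falling genes were read because SOX proteins bind short motifs such as ACAAAG or ACAATG, which read CTTTGT and CATTGT on the other strand. Promoter entries were matched by symbol in RefSeq (GRCm38.p6) for 127 of the 178 genes called lower and 87 of the 120 called higher, and the 250 bases before each start were searched. Letters of the motifs, on either strand, are in capitals below. Either motif was held by 37 of the 127 (29.1%) and by 14 of the 87 (16.1%), where 20.6% of 9559 genes above background and 28.2% of all 27025 genes with an entry held one. No match of one motif is also a match of the other, and a match of letters is not a bound site. *Evl* and *Fblim1*, which have several start sites, and *Tead2*, a partner of the YAP coactivator that is described below, are shown as falling genes that hold a match. The first is the second *Evl* start at chr12:108605516-108605765 on the plus strand, followed by the downstream *Fblim1* start at chr4:141599999-141600248 on the minus strand and the *Tead2* start at chr7:45215542-45215791 on the plus strand.
Evl: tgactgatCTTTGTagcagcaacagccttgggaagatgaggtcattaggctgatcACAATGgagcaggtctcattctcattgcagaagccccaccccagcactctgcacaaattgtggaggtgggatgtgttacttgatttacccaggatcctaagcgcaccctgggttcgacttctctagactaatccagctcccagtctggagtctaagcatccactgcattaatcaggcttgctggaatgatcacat
Fblim1: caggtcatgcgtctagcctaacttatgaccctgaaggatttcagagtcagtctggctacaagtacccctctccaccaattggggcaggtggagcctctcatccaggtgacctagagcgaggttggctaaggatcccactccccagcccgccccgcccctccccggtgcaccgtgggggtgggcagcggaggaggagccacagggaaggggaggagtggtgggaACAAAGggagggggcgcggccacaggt
Tead2: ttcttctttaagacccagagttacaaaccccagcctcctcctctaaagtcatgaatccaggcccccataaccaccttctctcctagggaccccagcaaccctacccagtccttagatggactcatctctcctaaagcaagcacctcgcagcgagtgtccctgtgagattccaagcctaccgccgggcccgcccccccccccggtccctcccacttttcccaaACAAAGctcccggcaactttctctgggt
The upstream *Fblim1* start and the windows of *Pxdn*, *Fscn1*, *Tuba1a* and *Marcksl1* held neither motif within these 250 bases.

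Some matrix glycoproteins fell, and the enzymes that process matrix went both ways. Of 21 glycoproteins and proteoglycans above background, *Fn1*, *Efemp1* and *Vcan* were called lower and 0 higher, and the median was -0.61, with 12 lower on both arrays. Among all genes above background 1.49% were called lower, 1.0% were called higher and 39.0% were lower on both arrays. *Efemp1*, fibulin-3, read 8.13 and 7.31 against 11.04 and 10.52. *Vcan*, the hyaluronan-binding proteoglycan versican, read 7.26 and 7.8 against 9.5 and 9.41, and its 3 probes ranged from -3.97 to -0.43. Among 22 cross-linking and processing genes *Pxdn* and *Pcolce2*, an enhancer of procollagen processing (-1.68 and -1.48), fell. *Tgm2*, tissue transglutaminase, rose from 12.71 and 11.88 to 13.77 and 14.24, *Loxl4*, a lysyl oxidase, had ratios of 1.24 and 2.28, and *Tll1*, a procollagen protease, 1.23 and 1.99, with its second probe at 0.61. One basement membrane collagen chain, *Col4a5*, was called higher, with ratios of 2.16 and 1.15, a rise of at least 2.94-fold from an undetected level in the wild type of these arrays. The other wild-type channels read 6.15 to 9.37 for it, beside 7.31 and 5.92 in dcKO cells, and the fit on separate channels gave an adjusted p of 0.491. Its log2 fold change in Sox11 cKO cells was -1.69. The 2 fibroblast markers above background, *Col1a2* (0.4 and 0.47) and *Fbln1*, a matrix fibulin (-1.86 and -0.98), went opposite ways, and the summed log2 level of all 12 fibroblast markers was 9.4 to 9.46 in dcKO and 10.03 to 10.46 in wild type. The part of feeder or other fibroblasts in the matrix and mesenchymal falls was not tested, and in such bulk RNA fewer cells of a type and less RNA per cell cannot be told apart. Of the 20 matrix proteases and inhibitors above background 0 were called by limma.

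Genes of basal keratinocyte identity had no calls. Of the 18 basal genes limma called 0 (1 passed by adjusted p alone, *Krt15* at 0.85), with values from -1.29 (*Itga3*) to 0.94 (*Dsg3*) and a median of -0.12. *Trp63*, the p63 transcription factor, had ratios of -0.32 and -0.69. Laminin-332 and hemidesmosome genes, 13 in number, had 0 calls by limma, 10 lower on both arrays, where 39.0% of all genes above background were, and a median of -0.38. Of 11 stress and hair follicle keratins *Krt7* was called higher and *Krt18* lower, and *Krt20* had ratios of 1.11 and 1.31 (adjusted p = 0.0336) short of the fold threshold.

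Genes of the outer epidermis went both ways. Of 26 cornified envelope precursors limma called 0, 9 were higher and 10 lower on both arrays, and values ran from -1.76 to 1.74. Among all genes above background 30.2% were higher and 39.0% lower on both arrays. Of 11 early differentiation genes 5 were higher on both arrays, 1 was lower and limma called 0 (median 0.45, or -0.06 under median centring). Among 18 cornification enzymes and inhibitors *Spink5* and *Cst6* rose. *Cst6*, cystatin M/E, an inhibitor of the proteases that activate transglutaminases, read 11.99 and 12.96 against 10.46 and 10.72. Its level was 12.15 to 13.42 in the other wild-type channels, above that of the wild type hybridised with dcKO.

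Transcription regulators of embryonic and mesenchymal cells had 5 of 29 members called lower and 0 higher (median -0.37; 19 lower on both arrays), where 1.49% of all genes above background were called lower and 39.0% were lower on both arrays. *Tead2* read 9.26 and 8.18 against 11.15 and 10.97, with its second probe at -3.2. *Twist2*, a basic helix-loop-helix factor of mesenchyme, had ratios of -1.68 and -3.99, *Rcor2*, a corepressor of neural progenitors, -2.39 and -0.86, and *Id1*, an inhibitor of differentiation factors, -2.82 and -1.01. *Hmga1*, a chromatin protein of embryonic cells, read 13.79 and 13.37 against 15.74 and 14.87 on its brightest probe, while its 3 probes ranged from -1.73 to 0.17. *Hmga2* and *Foxc2* were not called, with ratios of -0.3 and -2.5, and of -1.64 and -2.81. The epidermal transcription factors, 35 above background, had 0 calls by limma and a median of -0.08. Of 9 insulin-like growth factor and imprinted genes above background 2 fell and 0 rose, and 4 were higher and 5 lower on both arrays (median -0.14). *Mest*, a hydrolase expressed from the paternal allele, fell (-2.4 and -1.99), with its 3 probes from -2.19 to -0.53, as did the cyclin-dependent kinase inhibitor *Cdkn1c* (-1.68 and -1.69). *Igfbp2*, a carrier of insulin-like growth factors, had ratios of 2.76 and 2.84 and was not called (adjusted p = 0.0724).

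Signalling genes were lower where they were called in the Wnt and TGF-beta lists. Among all genes above background 1.49% were called lower and 1.0% higher. Of 32 Wnt genes above background, *Ror2*, *Wnt5a* and *Fzd7* were called lower and 0 higher (median -0.15). *Wnt5a* is a ligand of the ROR2 receptor, and read 6.42 and 5.87 against 9.24 and 8.05, with 5.26 to 6.63 in the other wild-type channels. *Ror2* was undetected in both dcKO channels, at least 7.83-fold below the wild type of its arrays. The receptor *Fzd7* had ratios of -1.73 and -1.28, and its dcKO levels were below all 6 wild-type levels, but its second probe gave -0.34. Of 37 TGF-beta and BMP genes 4 fell and 0 rose (median -0.27). *Fst*, follistatin, which traps activins, read 12.73 and 12.06 against 15.03 and 14.15, and the other wild-type channels lay between 13.41 and 14.44. *Ltbp3*, which holds latent TGF-beta in the matrix, had ratios of -2.29 and -2.58, the type I receptor *Acvrl1* -1.55 and -1.82, and the ligand *Tgfb3* -1.92 and -1.45, undetected in dcKO and at least 3.22-fold lower. The *Acvrl1* levels of dcKO cells, 7.94 and 6.73, lay within the 5.58 to 8.63 of the other wild-type channels. For *Acvrl1* the fit on separate channels gave an adjusted p of 0.486.

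The list of EGF and FGF receptors, their ligands and ERK feedback genes had 6 members called lower and 2 higher of 30 (median -0.51; 19 lower on both arrays), beside 1.49% called lower, 1.0% called higher and 39.0% lower on both arrays among all genes above background. *Etv4* and *Etv5* are ETS factors induced by ERK signalling. *Etv4* read 10.58 and 8.69 against 12.51 and 11.99, and *Etv5* 8.77 and 6.96 against 10.72 and 10.45. *Dusp6*, the ERK phosphatase that ERK itself induces, read 10.12 and 9.55 against 12.13 and 11.77 (-2.11 ± 0.18, SE; limma adjusted p = 0.00334). The EGF receptor ligand *Areg*, amphiregulin, had ratios of -1.61 and -2.62, and its dcKO levels of 8.28 and 7.28 lay within the 6.83 to 9.88 of the other wild-type channels. *Dusp10* and *Phlda1* were also called. The ligand *Hbegf*, at -1.4 (adjusted p = 0.0117), was short of the fold threshold. *Rasgrp1*, a Ras exchange factor, rose from 5.6 and 5.11 to 9.0 and 7.52, above all wild-type levels, and *Fgfbp1*, which releases FGFs from the matrix, rose from 8.39 and 8.97 to 10.73 and 10.73. Of 20 AP-1 and immediate early genes *Fosl1* (-1.91 and -1.53) and *Maff* (-0.92 and -2.13) fell and 0 rose. Both *Fosl1* levels of dcKO cells, 7.89 and 8.36, lay within the 6.32 to 9.84 of the other wild-type channels. Among guidance receptors the semaphorin receptor *Plxnd1* (-2.93 and -1.63) and the ephrin receptor *Epha2* (-1.69 and -1.71) fell, 2 of 42, with 0 higher. The second *Plxnd1* probe gave -0.37.

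**Figure D4:**
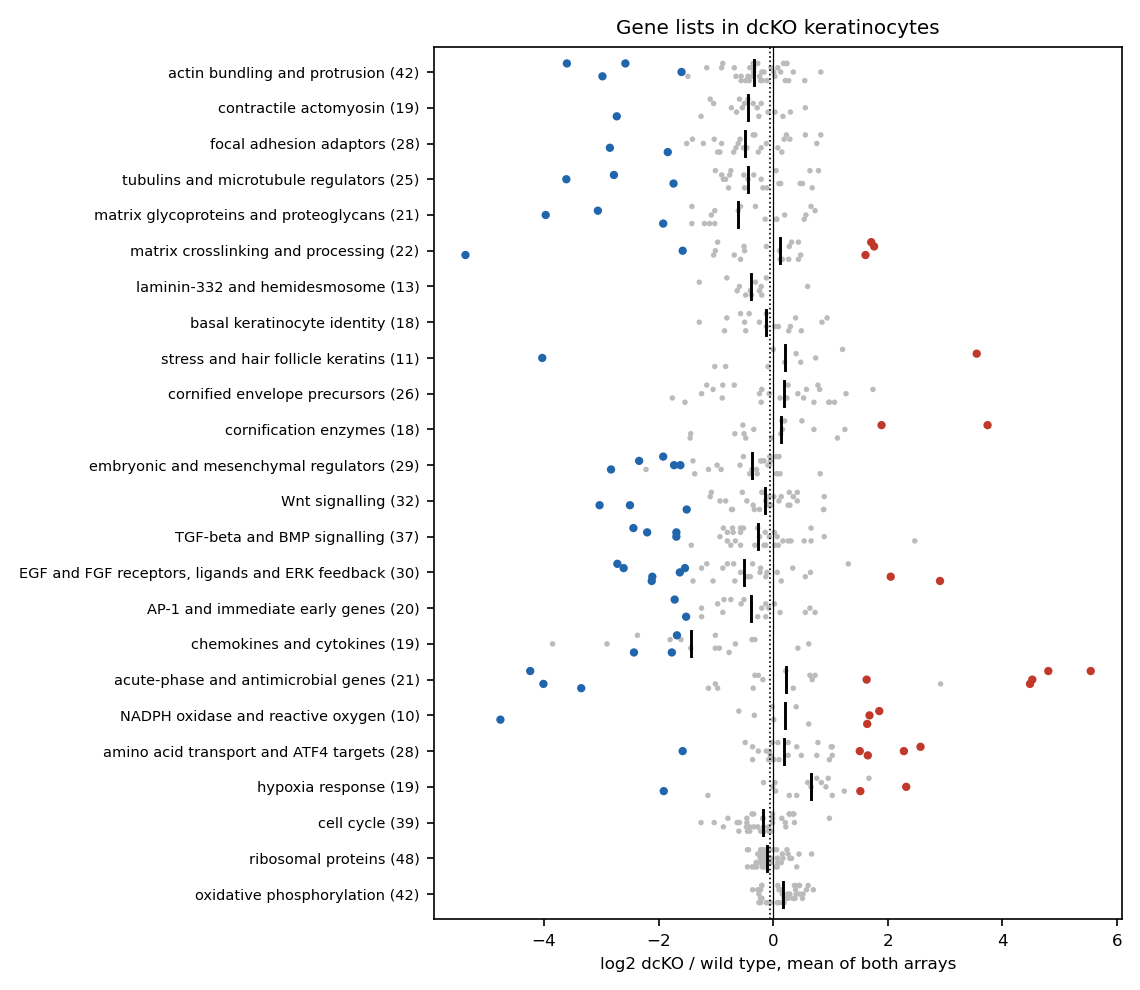
Log2 fold change in dcKO of the members above background (number in parentheses) of 24 gene lists, with called members in red (higher) and blue (lower), a bar at the list's median and a dotted line at the median of all genes above background, -0.05. The Wnt, TGF-beta, actin and tubulin lists have called members only on the lower side, whereas the acute-phase list has 5 on the higher and 3 on the lower side and the ribosomal list has 0.

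Inflammatory genes split by kind and by array. Of 21 acute-phase and antimicrobial genes 5 were called higher, *Gm15056*, *Vnn1*, *Orm1*, *Orm2* and *Serpina3m*, and 3 lower, *Serpina3f*, *Serpina3i* and *Wfdc2* (median 0.22). Over all genes above background 1.0% were called higher and 1.49% lower. *Wfdc2*, a secreted protease inhibitor, read 11.16 and 10.12 against 14.14 and 13.84. The other wild-type channels lay between 7.33 and 13.74 for *Wfdc2*, a range that held both dcKO levels. *Defb1*, beta-defensin 1, had ratios of 3.58 and 2.26 but was not called (adjusted p = 0.13), and it ranged from 6.29 to 11.37 in the other wild-type channels. *S100a8* and *S100a9*, the subunits of calprotectin, were higher in dcKO on replicate 1 and lower on replicate 2, with ratios of 2.08 and -4.34, and of 1.57 and -3.59. Their wild-type levels were close (11.89 and 11.24 for *S100a8*), so it was the dcKO channels, at 13.96 and 6.9, that differed between the arrays.

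Chemokines and cytokines had a median of -1.44 over 19 genes, and 15 of the 19 were lower on both arrays, beside 39.0% of all genes above background. Called lower were *Cxcl2*, a neutrophil chemokine (5.41 and 5.1 against 8.09 and 7.29), *Il24* (8.13 and 7.63 against 9.51 and 9.8) and *Il23a*, a subunit of interleukin-23 (-2.02 and -1.35, at least 2.64-fold). *Il23a* was also undetected in dcKO cells, and since *Cxcl2* was undetected in both dcKO channels, its fall was one of at least 5.34-fold. The other wild-type channels, however, lay below those of these arrays, at 4.79 to 6.83 for *Cxcl2* and 7.88 to 9.35 for *Il24*. Both *Cxcl2* levels and the higher *Il24* level of dcKO cells lay within these ranges. The neutrophil chemokines *Cxcl1* and *Cxcl5* also differed widely in dcKO cells between the arrays, though they were lower than wild type on both. *Cxcl5* was 14.12 and 8.52 in dcKO cells against 15.6 and 14.75 in wild type, and *Cxcl1* was 13.14 and 7.85 against 13.83 and 12.96. Neither was called (adjusted p = 0.163 and 0.236). *Irf1*, an interferon-induced factor and the only called gene of 19 in the interferon list, had ratios of -1.38 and -3.24, and its second probe gave -0.22. The other wild-type channels ran from 7.04 to 11.39 for *Irf1*, beside 9.85 and 6.42 in dcKO cells. The fit on separate channels gave *Irf1* an adjusted p of 0.235. *Tap2*, a peptide transporter for antigen presentation, rose from 8.23 and 7.13 to 9.48 and 9.19.

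Oxidases and metabolic enzymes changed gene by gene. *Duox1*, an epithelial NADPH oxidase, and its maturation factor *Duoxa1* rose together, with ratios of 1.53 and 1.83, and of 1.97 and 1.74, while *Cyba*, the subunit of a different oxidase complex, fell. The wild-type levels of *Duox1* and *Duoxa1* on these arrays were below those of the other 4 wild-type channels. *Cat*, catalase, had ratios of 1.53 and 1.75. Lactate enzymes went both ways: *Ldhb* fell and *Ldhd*, which uses D-lactate, rose (2.21 and 2.2), in a list of 29 genes with a median of 0.09. *Scd2*, a stearoyl-CoA desaturase, read 13.41 and 14.02 against 10.47 and 11.77, and *Fabp4*, a fatty acid carrier, fell with ratios of -3.23 and -2.39. *Odc1*, the first enzyme of polyamine synthesis, read 13.33 and 12.69 against 15.58 and 14.64 (-2.1 ± 0.14, SE; limma adjusted p = 0.00126).

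Genes of amino acid supply and of hypoxia were higher on both arrays more often than lower, though under median centring the median of the first list turned to -0.3 and that of the second went from 0.66 to 0.15. Of 28 amino acid transporters and ATF4 targets 4 rose and 1 fell (median 0.18, with 14 higher on both arrays, where 30.2% of all genes above background were). The shares called over all genes above background were 1.0% higher and 1.49% lower. *Slc7a3*, a cationic amino acid transporter, had ratios of 3.45 and 1.69, *Chac1*, which degrades glutathione, 2.28 and 1.02, *Psph*, the last enzyme of serine synthesis, 1.96 and 1.06, and *Vldlr*, a lipoprotein receptor, 2.56 and 2.01 with its second probe at 1.04. The glutamine transporter *Slc38a1* fell (-1.18 and -1.98), with its 3 probes from -1.58 to -0.24. Of 19 hypoxia genes 2 rose, 1 fell and 14 were higher on both arrays. *Bnip3*, a mitophagy receptor, read 11.85 and 12.62 against 9.82 and 10.01, although its 3 probes ranged from 0.91 to 2.32, and *Ankrd37* had ratios of 1.44 and 1.61. In the other wild-type channels *Bnip3* read 10.05 to 13.32 and *Ankrd37* 7.5 to 8.55, above the wild type of these arrays. These ranges hold both *Bnip3* levels of dcKO cells and the lower *Ankrd37* level of 7.78, and in the fit on separate channels neither passed (adjusted p = 0.0857 and 0.117). *Pdk1*, the kinase that shuts pyruvate out of the mitochondria, was at 1.24 (adjusted p = 0.0122), and *Ndrg1* was not called (1.48 and 1.85; adjusted p = 0.0932). *Hif3a*, an inhibitory HIF subunit, was called lower (-1.41 and -2.42), with its 3 probes from -1.91 to -0.04.

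Genes of growth had few calls. Of 39 cell cycle genes limma called 0, and the 2 that passed by adjusted p alone were lower; values ranged from -1.26 to 0.98 around a median of -0.18. The 48 ribosomal protein genes ran from -0.45 to 0.67 and the 42 oxidative phosphorylation genes from -0.36 to 0.7, with 0 calls by limma and 0 adjusted p below 0.05 in each. Of 26 cell cycle inhibitors and p53 targets *Cdkn2b*, the INK4b inhibitor, rose (2.06 and 2.06, second probe 1.16), as did the stress sensor *Gadd45g* (0.95 and 2.07), and *Cdkn1c* fell. Both rises were close to the threshold (limma adjusted p = 0.048 and 0.0454). The other wild-type channels, at 7.92 to 10.68 and 10.41 to 13.89, held the *Cdkn2b* level of 9.64 and both *Gadd45g* levels of dcKO cells. In the fit on separate channels neither rise passed (adjusted p = 0.0832 and 0.525). Smaller lists added single genes. Of 14 clade B serpins *Serpinb1a*, an inhibitor of neutrophil proteases, rose with ratios of 3.72 and 0.97. It was not called without the dye term or in the fit on separate channels. Of the 14 serpins 9 were higher on both arrays, where 30.2% of all genes above background were (median 0.66, or 0.28 under median centring). The clotting list held 1 rise and 1 fall among 14 genes, of *Thbd*, thrombomodulin (2.75 and 2.52), and of the thrombin receptor *F2r* (-3.13 and -1.69). Among 21 junction genes the tight junction claudin *Cldn7* fell (-1.85 and -3.74). Its dcKO levels of 9.5 and 7.01 lay within the 6.74 to 12.28 of the other wild-type channels. Of 22 genes of xenobiotic and retinoid metabolism the retinal reductase *Dhrs3* (1.66 and 1.81) and *Cyp2b10* (1.21 and 2.38) rose and *Akr1c13* fell (-0.77 and -2.51). The lists for barrier lipids (25 genes), Notch signalling (22), gap junctions (5) and desmosomes (11) had 0 calls by limma, with medians of -0.04, -0.16, -0.29 and -0.09.

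A list of 25 genes that the study named as activated targets had 14 members called lower, but it was chosen partly on these arrays, so its direction is not independent evidence. It held *Gng2*, a G protein subunit, at 6.94 and 6.63 against 10.17 and 9.65 in wild type, where the other wild-type channels lay between 6.64 and 8.05. Over the 63 lists examined, 99 of the 298 called genes belonged to at least 1.

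Each called gene was then compared with the single knockouts, since a call in dcKO cells alone does not show that it differs from them. The dcKO log2 fold change differed from that of Sox4 cKO cells for 134 of the 298 called genes (limma adjusted p below 0.05, reached by 1.24% of all genes) and from that of Sox11 cKO cells for 114 (0.842% of all genes). With the fold threshold added, 95 genes were higher (0.445%) and 126 lower (0.59%) in dcKO than in Sox4 cKO cells, and 88 were higher (0.412%) and 80 lower (0.374%) than in Sox11 cKO cells. Of the 298 called genes, 82 differed from both by adjusted p, of which 38 were higher and 44 lower in dcKO. Over all 21368 genes, called or not, 99 differed from both (0.463%). For 132 of the 298 called genes the dcKO change differed from neither at this threshold, which does not show that the genotypes were alike. The labels do not state whether the 3 comparisons share wild-type RNA. The Y-linked *Eif2s3y* read 4.69 and 4.38 in the wild type of the dcKO arrays and up to 10.32 in the others. Not all wild-type channels thus held the same RNA. The differences above are between ratios, each over the wild type of its own array, and the part of the wild type in them was not tested.

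Several of the strongest changes stood well apart from both single knockouts. *Pycard*, at 4.92 in dcKO cells, was at -0.47 after loss of *Sox4* alone and at 0.0 after loss of *Sox11* alone (adjusted p of the differences 0.00102 and 0.00197). *Krt18* was 1.59 and 1.08 in the single knockouts and -4.03 in dcKO (0.00217 and 0.00338). *Fscn1* was 0.31 and -0.29 beside -2.98 (0.0216 and 0.0416), and *Fblim1* -0.61 and 0.06 beside -2.85 (0.019 and 0.0103). *Fst* was 0.17 and -0.53 beside -2.2 (0.0102 and 0.0324), and *Odc1* 1.06 and -0.74 beside -2.1 (0.00368 and 0.0483). *Pxdn* was -1.36 and -1.02 beside -5.37, where dcKO cells were not above background (0.00534 and 0.0043). *Hspb8* also differed (-1.02 and -1.23 beside 4.35; 0.00217 and 0.00321), with the low wild-type level on the dcKO arrays described above.

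Other genes differed from 1 single knockout or from neither. *Etv5* was at 1.33 after loss of *Sox4*, at -0.81 after loss of *Sox11* and at -2.72 in dcKO, and the difference passed against Sox4 cKO (0.00591) and not against Sox11 cKO (0.0662). *Areg*, at 1.74, -0.71 and -2.12, showed the same (0.00892 and 0.162). *Vldlr*, higher in dcKO at 2.28, was -2.92 in Sox11 cKO (0.0135) and -0.37 in Sox4 cKO (0.0806). *Slc7a3* was 2.16 in Sox4 cKO and 2.57 in dcKO (0.745), and *Mest* was -1.65 in Sox11 cKO and -2.19 in dcKO (0.623). *Krt7* was 1.66 and 1.55 in the single knockouts beside 3.55 (0.25 and 0.255), and *Tgm2* 1.04 and 1.29 beside 1.71 (0.459 and 0.766).

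**Figure D5:**
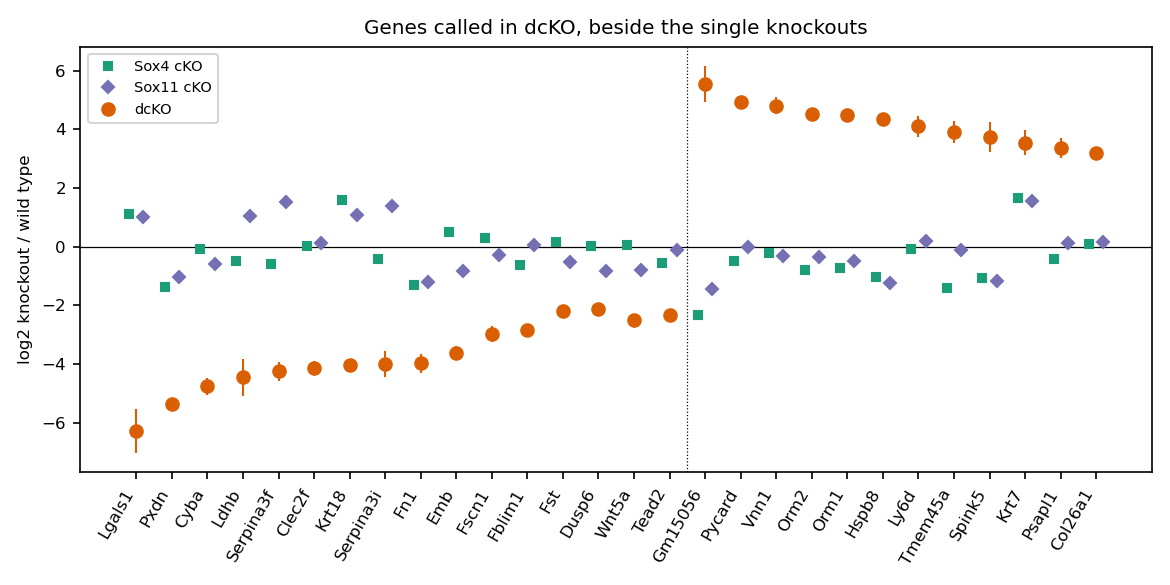
Log2 fold change of 28 genes called in dcKO cells (orange circles, with the limma SE), beside their values in Sox4 cKO (green squares) and Sox11 cKO cells (purple diamonds), genes lower in dcKO to the left of the dotted line. Among the genes on the left, *Krt18* and *Lgals1* lie above 1 in both single knockouts and at -4.03 and -6.28 in dcKO, whereas *Pycard*, on the right, lies at 4.92 against -0.47 and 0.0.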

How the data were processed

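RNA of the 6 samples was hybridised to 2-colour Agilent arrays and quantified by the submitters with Agilent Feature Extraction 11.0.1.1, per the labels. The deposited files hold linear spot intensity values for each dye, of which median signals and median backgrounds were used. The authors' table, an alternative here, holds normalised log2 ratios corrected for dye, which ran as knockout over wild type. Replicate 1 of each genotype carried the knockout in Cy5 and replicate 2 in Cy3, so replicate number and dye are the same term. Background was corrected with normexp (offset 16) and ratios were loess-normalised within arrays in limma 3.58.1 (R 4.3.3). Control and outlier spots were removed and spots of a probe averaged. A model over all 6 arrays with a term per genotype and a dye term, which is the replicate block, was moderated by eBayes (2 residual and 5.37 prior degrees of freedom). Same-numbered samples deviated together (r = 0.125 to 0.316 over 3 pairs). Adjusted p-values (Benjamini-Hochberg) covered 55681 probes, and the thresholds of 0.05 and of 1.5 for the log2 fold change are those of the study. Levels were scaled between arrays with Aquantile. Of 29786 probes with a RefSeq accession 95.1% were named through the RefSeq table, and each gene is given by its brightest probe. Above background means marked so by Feature Extraction. Alternatives were another offset, processed signals, the authors' table, no dye term, the dye effect subtracted beforehand, median centring, a filter on dim probes, individual channels, gene means and leaving out each array. The fit was tested on simulated data. Genes were named as the 3 SoxC genes, the 15 largest rises and falls, up to 6 called members of each list and cell type markers. Genes named with values but not called, and *Wfdc2*, *Serpina3m*, *Dusp10* and *Phlda1*, were chosen after their values were seen. The members and lists were chosen with earlier results of these data known. Some genes are not reported here.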

Additional observations from a re-analysis of the deposited data

Results flagged for a closer look

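The genes called in dcKO cells whose log2 fold change also differed from both single knockouts numbered 82, by limma's test of the difference itself. The number was 11 without Sox4 cKO replicate 1, 26 without Sox4 cKO replicate 2, 27 without dcKO replicate 1, 16 without dcKO replicate 2, 241 without Sox11 cKO replicate 1 and 154 without Sox11 cKO replicate 2.

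Among 27350 probes with no gene symbol, which stand outside the comparisons of named genes, 79 were called in dcKO cells, 42 higher and 37 lower. Of 16194 probes designed to genomic intervals 30 were called higher and 2 lower, and of 2957 probes to Ensembl transcripts 3 and 7. Groups of 2 arrays were too small for a test of outlying samples.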

How the results depend on the processing

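Each of the 298 genes called in dcKO cells kept its direction under every alternative fitted by probe that could be tested for it, while the number of calls moved. Direction under gene means was not examined, and 8 of the called genes had probes of both signs. These genes had been called on the same arrays, so the kept direction is not independent support. Counts below are genes called (higher and lower), probes called (higher and lower), probes whose dcKO change differed from Sox4 cKO and from Sox11 cKO, and called genes that differed from both. As reported these were 298 (120 and 178), 421 (174 and 247), 313, 250 and 82. With a normexp offset of 50 they were 51 (14 and 37), 78 (27 and 51), 0, 0 and 0, with 7245, 6673 and 5843 probes at an unadjusted p below 0.05 for the 3 contrasts. With Feature Extraction's processed signals limma called 0 of each (0 higher and 0 lower), with 7473, 6422 and 5561 probes at an unadjusted p below 0.05. Median centring gave 513 (77 and 436), 720 (121 and 599), 1118, 827 and 283. The individual-channel fit gave 177 (71 and 106), 267 (118 and 149), 61, 136 and 33, and gene means gave 179 genes (75 and 104). The authors' table gave 664, 622 and 214 for the differences, with 355 genes called. Without the replicate block, which is the dye term, 212 genes (86 and 126) and 301 probes were called, and the differences fell to 97, 88 and 28. Leaving out 1 array at a time gave 82 to 393 genes (30 to 175 higher, 52 to 218 lower), 121 to 549 probes (51 to 252 higher, 68 to 297 lower), 21 to 811 and 32 to 1530 probes for the differences, and 11 to 241 genes that differed from both. The lowest gene counts came without dcKO replicate 1 (82) and without dcKO replicate 2 (91), where the lone dcKO array is assumed to vary like the other genotypes, and 61 and 75 of these genes were among the 298. Among genes that were not called, the log2 fold change turned to -0.2 for *Krt14* and -0.11 for *Krt5* under median centring, and between the fits without dcKO replicate 1 and without dcKO replicate 2 it went from 0.86 to -0.09 for *Krt5*, from -4.83 to 2.57 for *S100a8* and from -4.25 to 2.23 for *S100a9*, the first of which passed the thresholds for both *S100a* genes. The cause was not tested for any of these. Of 106 named called genes, 25 were called at an offset of 50, 56 in individual channels and 92 under median centring. All arrays lay on 1 slide, so the slide block was not run. Signal over background limited 28 genes called lower and 13 called higher, which were undetected on their dimmer side.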
